A study of Homo sapiens with 6 samples.

Results

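Binding of PLAG1-S and USF2 was examined at 52 genes for lysosomal hydrolases, lysosomal membrane proteins and the proteins that deliver or activate them, out of 20037 protein-coding genes. The genes were listed by symbol, and all 52 were found in the RefSeq annotation. A peak was assigned to a gene when it lay inside the gene body or within 3 kb of either end. The list held 33 hydrolases, 11 membrane proteins, 5 sorting and maturation proteins and 3 soluble helper proteins. Chromatin came from K562, a chronic myelogenous leukemia cell line. Clones 4 and 5 of this line both co-overexpressed Flag-PLAG1-S, the short form of the zinc finger factor PLAG1 with a Flag tag, and USF2, a basic helix-loop-helix factor. Each clone gave 1 anti-Flag library, 1 anti-USF2 library and 1 input library. Every library, inputs included, came from overexpressing cells, so binding at endogenous levels of the factors is not shown. The merged inputs served as the background of all 4 peak lists.

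Lysosomal hydrolases are proteases, glycosidases, sulfatases and lipases that degrade macromolecules at acidic pH. Most soluble hydrolases receive a mannose-6-phosphate tag in the Golgi, which the receptors encoded by IGF2R and M6PR recognise for delivery to the lysosome. USF2 and the lysosomal regulator TFEB belong to related families of factors that bind the E-box CACGTG.

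The promoter sequence around the USF2 summit is shown for 7 co-bound genes among those with the largest USF2 fold enrichment of their class. Sequences are from RefSeq (build GRCh38.p14), 5′ to 3′ on the strand of the gene, within 60 bases of the clone 4 USF2 summit and within the promoter window. Capitals mark CACGTG. The stretches lay at chr13:113297026-113297145 (LAMP1, plus strand), chr19:7522530-7522649 (MCOLN1, plus strand), chr17:80101478-80101597 (GAA, plus strand), chr16:88857015-88857134 (GALNS, minus strand), chr6:159968950-159969069 (IGF2R, plus strand), chr3:4467240-4467313 (SUMF1, minus strand) and chr16:1351871-1351960 (GNPTG, plus strand).
LAMP1: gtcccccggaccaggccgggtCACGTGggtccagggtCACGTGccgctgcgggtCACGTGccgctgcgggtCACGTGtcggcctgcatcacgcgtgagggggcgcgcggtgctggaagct
MCOLN1: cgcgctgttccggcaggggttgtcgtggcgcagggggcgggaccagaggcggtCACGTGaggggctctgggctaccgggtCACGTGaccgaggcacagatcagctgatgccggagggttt
GAA: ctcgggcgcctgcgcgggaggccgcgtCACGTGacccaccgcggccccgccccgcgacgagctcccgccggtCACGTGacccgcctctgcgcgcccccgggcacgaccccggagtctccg
GALNS: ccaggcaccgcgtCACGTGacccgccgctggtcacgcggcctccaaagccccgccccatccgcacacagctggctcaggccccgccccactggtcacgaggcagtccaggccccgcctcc
IGF2R: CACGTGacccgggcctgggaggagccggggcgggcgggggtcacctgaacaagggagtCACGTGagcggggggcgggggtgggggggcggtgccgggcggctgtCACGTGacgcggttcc
SUMF1: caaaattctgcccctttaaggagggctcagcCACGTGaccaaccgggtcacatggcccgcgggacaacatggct
GNPTG: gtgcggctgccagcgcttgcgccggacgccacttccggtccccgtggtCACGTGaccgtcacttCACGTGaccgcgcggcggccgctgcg
The LAMP1 stretch held 4 copies of CACGTG, the IGF2R stretch 3, the MCOLN1, GAA and GNPTG stretches 2 each, and the GALNS and SUMF1 stretches 1 each.

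A second set is shown of promoter windows with a USF2 summit that held no CACGTG but held CACATG or CATGTG. It was chosen after the values were seen. The windows of AGA, GUSB and SMPD1 had a clone 4 USF2 summit and held none of these letters, and they are not shown. SCARB2, which held the changed form, is not shown either. Capitals mark CACATG or its reverse complement CATGTG, which is CACGTG with 1 letter changed. The stretches lay at chr4:986950-987069 (IDUA, plus strand), chr12:8949648-8949767 (M6PR, minus strand), chr1:40097223-40097291 (PPT1, minus strand), chr11:6619393-6619500 (TPP1, minus strand) and chr14:87993153-87993237 (GALC, minus strand). GALC had a USF2 peak in clone 4 alone.
IDUA: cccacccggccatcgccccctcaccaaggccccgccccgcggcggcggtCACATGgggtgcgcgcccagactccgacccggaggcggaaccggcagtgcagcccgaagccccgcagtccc
M6PR: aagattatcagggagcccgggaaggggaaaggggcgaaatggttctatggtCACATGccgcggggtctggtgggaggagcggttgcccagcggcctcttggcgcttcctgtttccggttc
PPT1: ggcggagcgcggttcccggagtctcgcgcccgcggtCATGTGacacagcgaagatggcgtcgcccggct
TPP1: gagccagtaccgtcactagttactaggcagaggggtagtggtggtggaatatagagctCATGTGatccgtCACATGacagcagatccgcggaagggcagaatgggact
GALC: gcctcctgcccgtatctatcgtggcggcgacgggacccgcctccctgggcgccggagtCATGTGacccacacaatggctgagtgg

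The peak lists held 37574 PLAG1-S peaks in clone 4, 29889 in clone 5, and 9338 and 4369 USF2 peaks in the same clones. A peak was called reproducible when the lists of both clones held it for the same factor, with its clone 4 coordinates. On chromosomes 1 to 22, X and Y, 21332 PLAG1-S peaks and 2358 USF2 peaks were reproducible. The 2078 PLAG1-S peaks that had a reproducible USF2 peak at most 100 bp away are called co-bound. The summit of a typical peak carried a median of 20 to 24 fragments in the 4 lists, and no peak had fewer than 11. The lists give no markers of cell identity, so the labelled cell line could not be checked from them.

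PLAG1-S and USF2 peaks were both found near the 52 listed genes, called lysosomal genes here, more often than near other protein-coding genes. The others include lysosomal genes that were not listed. A reproducible PLAG1-S peak was present at 43 of the 52 genes (82.7%), against 51.9% of 19985 other protein-coding genes. A reproducible USF2 peak was present at 27 genes (51.9%), against 10.2% of the others. All 27 were co-bound, so the co-bound share of the list was also 51.9%, against 9.87% of all the others. Among the 19985 others, 2046 genes had a USF2 peak and nearly as many, 1973, were co-bound. The exact binomial 95% interval of the co-bound share was 37.6 to 66.0% and covers counting only. Among genes that had a PLAG1-S peak at all, 27 of 43 lysosomal genes (62.8%) were co-bound, against 19.0% of 10380 others. Clones and genes gave no test of these shares, since the list was drawn up with earlier results known.

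The share of other genes moved with the rule more than the lysosomal count did. In the clone 4 lists alone, 33 lysosomal genes and 20.4% of other genes were co-bound, and in the clone 5 lists alone 27 genes and 11.2%. With peaks compared within each clone and the counts averaged, the values were 30 genes and 15.8% of others.

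**Figure D1:**
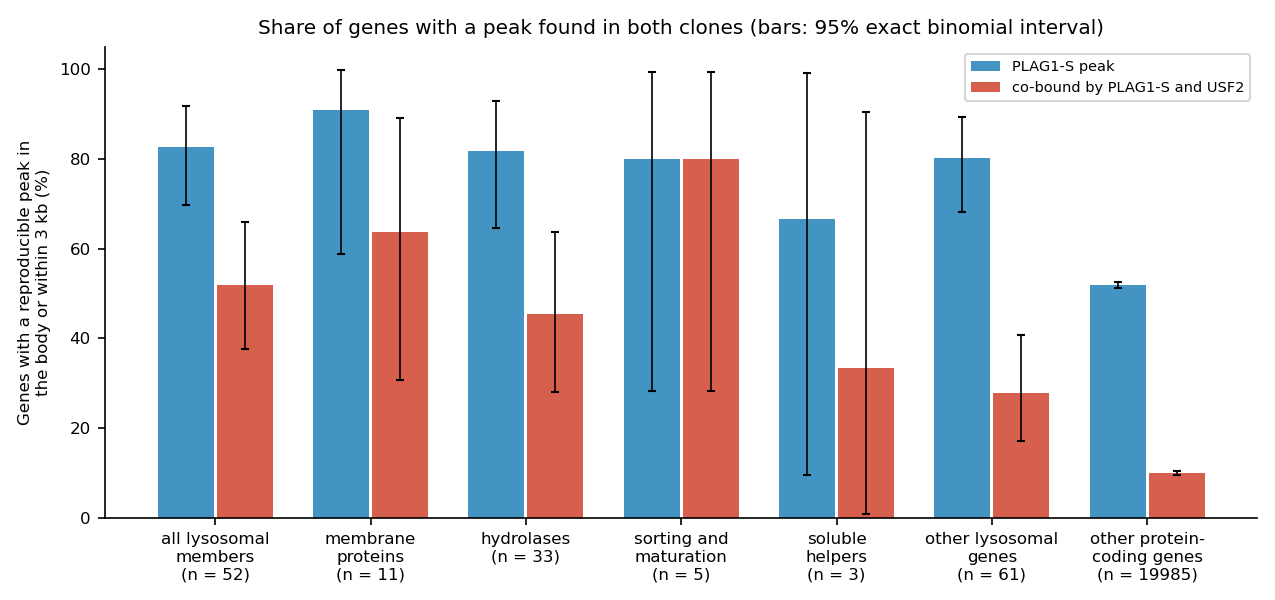
Share of genes (%, vertical axis) with a reproducible PLAG1-S peak (blue) and with a co-bound peak (red), by gene class, with exact binomial 95% intervals. Co-bound peaks were at 51.9% of the 52 lysosomal genes and 9.87% of other protein-coding genes, and the intervals of the 4 classes overlap.

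By class, 7 of 11 membrane proteins (63.6%), 15 of 33 hydrolases (45.5%), 4 of 5 sorting and maturation proteins (80%) and 1 of 3 soluble helpers were co-bound. PLAG1-S peaks were at 10, 27, 4 and 2 of these genes. Their intervals were 30.8 to 89.1%, 28.1 to 63.6%, 28.4 to 99.5% and 0.84 to 90.6%, so the classes could not be ranked. Among hydrolases, 5 of 11 proteases, 6 of 12 glycosidases, 2 of 5 sulfatases and 2 of 5 lipid or amide hydrolases were co-bound.

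LAMP1 encodes an abundant glycoprotein of the lysosomal membrane and had the strongest USF2 peak of the list. Its co-bound peak had a PLAG1-S fold enrichment, the ratio to the local background at the summit, of 50.6 in clone 4 and 52.2 in clone 5. The USF2 fold enrichment was 55.1 in clone 4 and 53.1 in clone 5. Both clones gave close values, and the USF2 peak ranked 3 of 9338 by fold in clone 4 and 1 of 4369 in clone 5. The clone 4 USF2 peak spanned chr13:113296779-113297509, with its summit 153 bp upstream of the listed start of LAMP1. LAMP1 was the 1 co-bound gene of the list at which the USF2 fold exceeded the PLAG1-S fold in clone 4.

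MCOLN1 encodes the calcium channel mucolipin 1 of the lysosomal membrane and had the largest PLAG1-S fold of the list. The PLAG1-S fold was 57.5 in clone 4 and 55.5 in clone 5, and the USF2 fold was 44.1 and 32.2. The PLAG1-S peak ranked 7 in clone 4 and 3 in clone 5, and the USF2 peak ranked 5 and 9. The USF2 peak spanned chr19:7522332-7522878, with its summit 34 bp upstream of the start, and the window of ZNF358 also held the peak.

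TMEM192 encodes a multipass protein of the lysosomal membrane. Its PLAG1-S fold was 35.9 in clone 4 and 31.9 in clone 5, and its USF2 fold was 18.9 and 9.58. The USF2 peak, at chr4:165112252-165112720, lay inside the gene body, with the summit 460 bp downstream of the start. The USF2 summit rested on 71 fragments in clone 4 and 35 in clone 5.

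The other 4 co-bound membrane proteins had USF2 folds between 10.4 and 18.9 in clone 4, and lower ones in clone 5. CLN3, which is lost in juvenile neuronal ceroid lipofuscinosis, had PLAG1-S folds of 30.04 and 24.3 and USF2 folds of 18.9 and 13.6 in clones 4 and 5. CD63, a tetraspanin of late endosomes and lysosomes, had 34.5 and 33.1 for PLAG1-S, with 16.4 and 9.54 for USF2. CTNS, the cystine exporter, had 25.6 and 17.0 for PLAG1-S, with 15.5 and 7.65 for USF2. The peak at CTNS also lay in the window of SHPK, and that at CLN3 in the window of APOBR. NPC1, which exports cholesterol from the lysosome, had 23.9 and 25.5 for PLAG1-S, with 10.4 and 9.81 for USF2. This peak lay past the 3′ end of NPC1, with the USF2 summit 83102 bp from its start and the PLAG1-S summit 0 bp from an end of RMC1, so NPC1 is counted through its neighbour.

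HEXA encodes the alpha subunit of beta-hexosaminidase A, which degrades GM2 ganglioside, and had the largest USF2 fold of the hydrolases. Its PLAG1-S fold was 34.2 in clone 4 and 33.5 in clone 5, and its USF2 fold was 32.6 and 22.7. These summits carried 217, 186, 181 and 147 fragments in the same order. The USF2 peak spanned chr15:72375801-72376298, with the summit 24 bp from the nearer gene end. No start was listed for HEXA in the promoter table.

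GAA, the acid alpha-glucosidase that degrades glycogen, had PLAG1-S folds of 47.6 in clone 4 and 47.5 in clone 5. Its USF2 folds were 27.9 and 20.8. The PLAG1-S values of the clones were nearly equal, while USF2 was lower in clone 5. The USF2 peak lay at chr17:80101188-80101750, with the summit 43 bp upstream of the start.

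GALNS, a sulfatase of keratan sulfate breakdown, had PLAG1-S folds of 28.6 and 25.1 and USF2 folds of 23.04 and 13.3 in clones 4 and 5. The USF2 peak lay at chr16:88856801-88857351, with the summit 127 bp upstream of the start of GALNS. The PLAG1-S summit was nearer to TRAPPC2L, 28 bp from an end of that gene. A further co-bound peak, with the PLAG1-S summit 45465 bp downstream of the start, lay past the 3′ end of GALNS and inside APRT, with 3 coding genes in reach. It had PLAG1-S folds of 16.2 and 10.9 and USF2 folds of 8.12 and 5.38.

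The co-bound proteases spanned a wide range of USF2 fold. CTSD, the main aspartic protease of lysosomes, had PLAG1-S folds of 38.7 and 37.3 and USF2 folds of 21.8 and 12.7 in clones 4 and 5. TPP1, a tripeptidyl peptidase, had 26.6 and 19.2 for PLAG1-S, with 17.7 and 8.26 for USF2. CTSA, which protects NEU1 and beta-galactosidase in a complex, had 28.1 and 21.4 for PLAG1-S, with 17.6 and 12.9 for USF2, at a peak shared with NEURL2 and SPATA25. The cysteine proteases CTSB and CTSF were lower. CTSB had PLAG1-S folds of 25.9 and 23.8 and USF2 folds of 11.6 and 10.9. CTSF had 20.1 and 16.7 for PLAG1-S, with 6.81 and 4.36 for USF2.

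The other co-bound glycosidases were below HEXA and GAA for USF2. NEU1, the lysosomal sialidase, had PLAG1-S folds of 36.2 and 29.95 and USF2 folds of 12.7 and 6.82 in clones 4 and 5. NAGLU, an enzyme of heparan sulfate breakdown, had 22.6 and 20.05 for PLAG1-S, with 12.3 and 8.44 for USF2. GLA, which removes terminal alpha-galactose, had 18.7 and 14.7 for PLAG1-S, with 10.6 and 6.58 for USF2. The peak at GLA was nearer to HNRNPH2, 19 bp from an end of that gene. IDUA, which acts on dermatan and heparan sulfate, had 17.8 and 17.5 for PLAG1-S, with 8.05 and 4.89 for USF2. A further co-bound peak inside IDUA, with the PLAG1-S summit 5723 bp downstream of the start and 2 coding genes in reach, had PLAG1-S folds of 20.4 and 12.5 and USF2 folds of 5.94 and 4.52.

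Of the remaining co-bound hydrolases, SGSH, a sulfatase of heparan sulfate, had PLAG1-S folds of 20.7 and 18.3 and USF2 folds of 10.4 and 9.39 in clones 4 and 5. Its peak was nearer to SLC26A11, 14 bp from an end of that gene. PPT1, which removes fatty acids from proteins, had 14.7 and 11.8 for PLAG1-S, with 5.83 and 2.94 for USF2. ASAH1, the acid ceramidase, had 9.68 and 10.1 for PLAG1-S, with 5.61 and 4.67 for USF2. PPT1 and ASAH1, with IDUA, CTSF and PSAP, were no longer co-bound when every peak had to reach a −log10 q of 10.

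Both mannose-6-phosphate receptors were co-bound. IGF2R, the cation-independent receptor, had PLAG1-S folds of 42.9 and 34.8 and USF2 folds of 26.0 and 17.6 in clones 4 and 5. Its USF2 peak lay at chr6:159968715-159969327, with the summit 72 bp upstream of the start. M6PR, the cation-dependent receptor, had 26.9 and 21.1 for PLAG1-S, with 10.1 and 7.85 for USF2. Its call was lost when peaks of the clones had to share 50% of their length.

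SUMF1, which activates the sulfatases by forming their catalytic formylglycine, had close values in both clones. Its PLAG1-S folds were 33.6 and 29.2 and its USF2 folds 20.2 and 19.4. The USF2 peak lay at chr3:4467053-4467457, with the summit 16 bp downstream of the start. A further co-bound peak inside SUMF1, with the PLAG1-S summit 163701 bp downstream of the start, had PLAG1-S folds of 24.6 and 23.5 and USF2 folds of 11.4 and 10.7. This peak met one end of SETMAR, so 2 coding genes were in reach.

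GNPTG and GNPTAB encode the subunits of the phosphotransferase that begins the mannose-6-phosphate tag, and they differed. GNPTG had PLAG1-S folds of 30.3 and 34.0 and USF2 folds of 18.3 and 18.6 in clones 4 and 5, and was the 1 co-bound gene of 27 whose USF2 fold was not higher in clone 4. Its USF2 peak lay at chr16:1351561-1352294, with the summit 0 bp from the start, and BAIAP3 and TSR3 also lay within reach. GNPTAB had a single PLAG1-S peak, in clone 4, with a fold of 7.56 and its summit 6901 bp inside the gene, and no USF2 peak.

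PSAP, the precursor of the saposins that present lipids to hydrolases, was the 1 co-bound helper and the weakest co-bound gene for USF2 in clone 4. Its PLAG1-S folds were 17.4 and 7.42, and its USF2 folds 3.97 and 3.57 in clones 4 and 5. The USF2 summits rested on 25 and 19 fragments. The USF2 peak, at chr10:71851146-71851337, had its summit 471 bp from the PLAG1-S summit, the widest gap among the 27 genes.

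**Figure D2:**
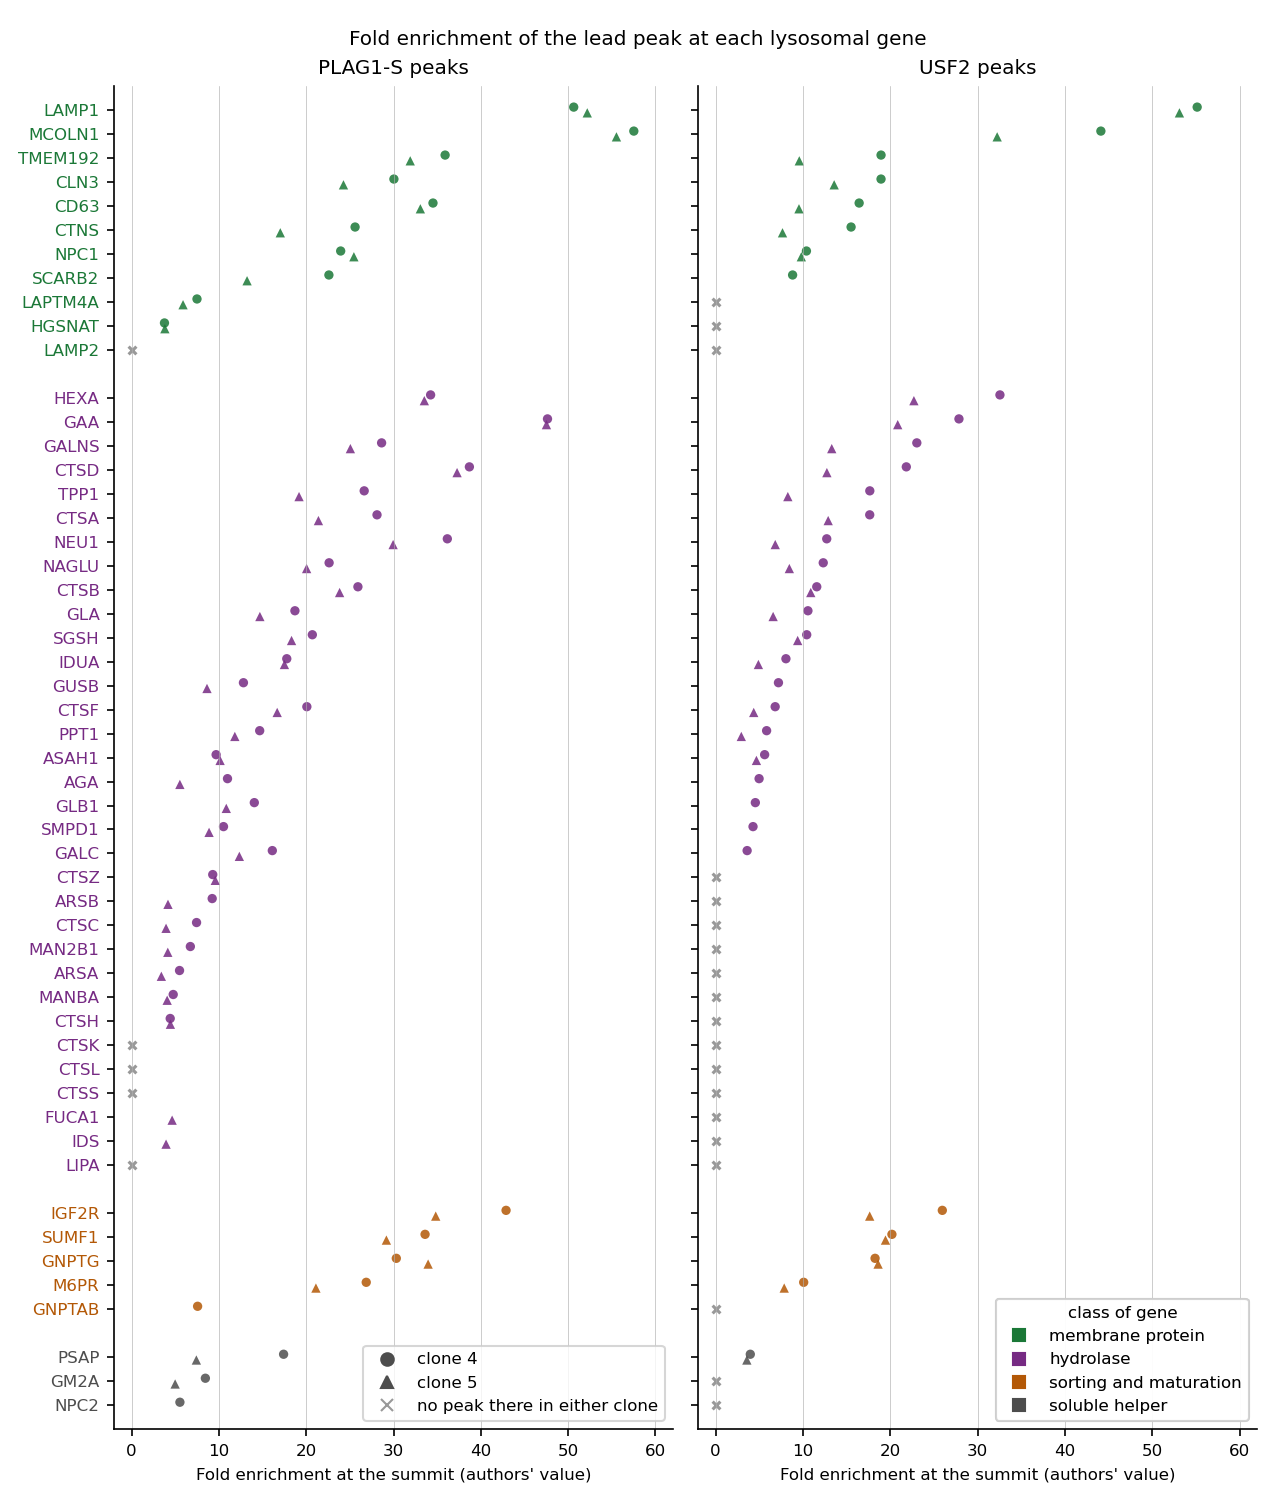
Fold enrichment (horizontal axis, linear) of the lead PLAG1-S peak (left) and USF2 peak (right) at each of the 52 genes, with circles for clone 4, triangles for clone 5 and crosses where neither clone had a peak there (CTSH, MAN2B1 and MANBA had a USF2 peak elsewhere in their window). LAMP1 (55.1) and MCOLN1 (44.1) had the largest clone 4 USF2 folds, and at 6 genes the PLAG1-S peak had a USF2 peak beside it in clone 4 alone.

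At 16 genes a reproducible PLAG1-S peak stood without a reproducible USF2 peak. Their PLAG1-S folds had a median of 8.84 in clone 4 (range 3.76 to 22.6) and 5.26 in clone 5 (3.41 to 13.2). At the 27 co-bound genes the medians were 28.1 (9.68 to 57.5) and 24.3 (7.42 to 55.5), so the ranges overlapped in both clones. The 16 genes were the proteases CTSC, CTSH and CTSZ, the glycosidases GLB1, GALC, GUSB, MAN2B1 and MANBA, the sulfatases ARSA and ARSB, the sphingomyelinase SMPD1, the glycosylasparaginase AGA, the membrane proteins HGSNAT, SCARB2 and LAPTM4A, and the GM2 activator GM2A, which works with hexosaminidase A.

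Of these 16 genes, 6 had a USF2 peak in clone 4 within 100 bp of the PLAG1-S peak and none in clone 5. The clone 4 share of 37.5% compares with 22.9% of 8407 other genes with PLAG1-S only. In clone 5 only 2.28% of those other genes had such a peak. SCARB2, the receptor that carries glucocerebrosidase to the lysosome, was the strongest of them, with a USF2 fold of 8.81 and PLAG1-S folds of 22.6 and 13.2, and its peak was nearer to FAM47E. The USF2 fold was 7.19 at GUSB, 4.97 at AGA, 4.54 at GLB1, 4.28 at SMPD1 and 3.60 at GALC. These 6 genes were co-bound in the clone 4 lists alone.

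By fold, the PLAG1-S peaks of these 6 genes stood between the top 2.34% (SCARB2) and the top 12.1% (SMPD1) of the clone 4 list, and between the top 5.67% (SCARB2) and the top 39.7% (AGA) of the clone 5 list. GALC, the galactocerebrosidase of myelin lipid breakdown, had PLAG1-S folds of 16.1 in clone 4 and 12.3 in clone 5. GLB1, the lysosomal beta-galactosidase, had 14.1 and 10.8, and GUSB, the beta-glucuronidase, 12.8 and 8.63. AGA had 10.98 and 5.53, and SMPD1 10.5 and 8.87. The value of clone 4 was the higher at each of these 5 genes.

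The other 10 PLAG1-S only genes had no USF2 peak within 100 bp of this PLAG1-S peak in either clone. Elsewhere in the gene window, CTSH and MAN2B1 had a USF2 peak in clone 4 alone and MANBA in clone 5 alone. CTSZ had PLAG1-S folds of 9.29 and 9.58 in clones 4 and 5, ARSB 9.23 and 4.17, GM2A 8.45 and 4.99, and LAPTM4A 7.49 and 5.89. CTSC had 7.44 and 3.95, MAN2B1 6.73 and 4.14, and ARSA 5.49 and 3.41. The lowest were MANBA with 4.76 and 4.07, CTSH with 4.42 and 4.44, and HGSNAT with 3.76 and 3.81. All were under the lowest clone 4 PLAG1-S fold of a co-bound gene, 9.68 at ASAH1. Some of these peaks were far from the start of the gene. The clone 4 summit lay 15927 bp downstream of it at CTSH and 63036 bp downstream at ARSB. CTSH and ARSB each had a further reproducible PLAG1-S peak, lower in clone 4 and higher in clone 5. Its summit lay 115 bp downstream of the start at CTSH and 108 bp upstream at ARSB. The folds of this further peak in clones 4 and 5 were 2.74 and 5.04 at CTSH, and 5.34 and 6.69 at ARSB. At MAN2B1 the peak was nearer to WDR83OS, 73 bp from an end of that gene.

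No reproducible peak of either factor was found at 9 genes. LAMP2, CTSK, CTSL, CTSS and LIPA had no peak in any of the 4 lists. IDS and FUCA1 had a PLAG1-S peak in clone 5 alone, with folds of 3.95 and 4.64. NPC2, which hands cholesterol to NPC1, had one in clone 4 alone, with a fold of 5.53, and GNPTAB is described above. Absence from a list means only that no peak passed its threshold, near a q of 0.01 for PLAG1-S and 0.05 for USF2.

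The listed genes also had stronger peaks. The strongest PLAG1-S peak of a gene had a median fold of 20.4 over 45 lysosomal genes with one in clone 4, against 7.10 over other genes, and of 16.7 against 6.42 in clone 5. For USF2 the medians were 11.6 over 35 lysosomal genes against 4.79 in clone 4, and 9.56 over 28 against 5.21 in clone 5. The 90th percentile of the other genes was exceeded by 24 and 23 lysosomal genes for PLAG1-S, and by 16 and 11 for USF2, in clones 4 and 5.

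The difference held among co-bound peaks. The 27 genes had 30 co-bound peaks, with a median clone 4 USF2 fold of 14.1, against 7.51 for the 2048 other co-bound peaks, and 9.56 against 5.71 in clone 5. The PLAG1-S medians were 26.8 against 18.9 in clone 4 and 23.7 against 14.5 in clone 5. When co-bound peaks were ranked by clone 4 USF2 fold, the first 207 held 13 of the 30 (43.3%), against 9.47% of the others. LAMP1 ranked 3, MCOLN1 5, HEXA 20, GAA 38 and IGF2R 51 among the 2078. The gene window selects peaks near genes, and 56.7% of the 30 peaks had 2 or more coding genes in reach, against 21.9% of the others, which include peaks far from any gene. The part of this difference in the fold values was not tested.

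**Figure D3:**
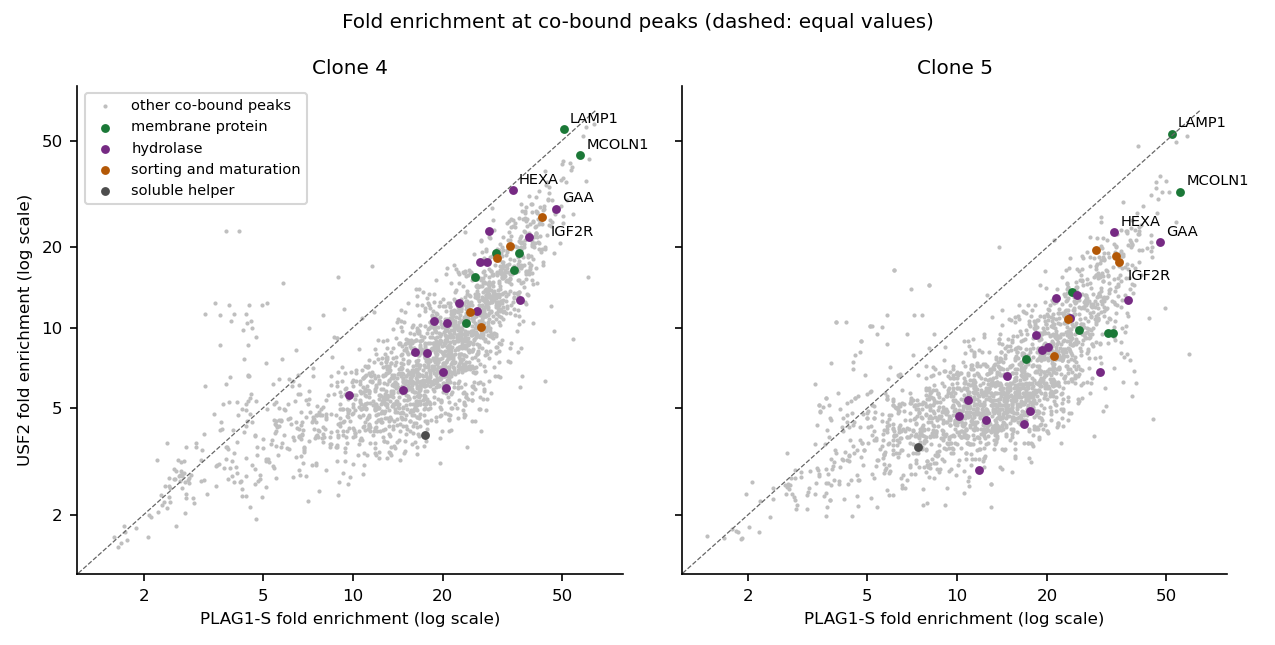
PLAG1-S fold (horizontal, log scale) against USF2 fold (vertical, log scale) at all 2078 co-bound peaks in clone 4 (left) and clone 5 (right), with peaks of lysosomal genes coloured by class and equal values dashed. LAMP1 lies on or above the line of equal values, and 13 of the 30 lysosomal peaks are among the first 207 by clone 4 USF2 fold.

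The USF2 fold was higher in clone 4 than in clone 5 at 26 of the 27 genes, and the PLAG1-S fold at 23. At co-bound peaks of the list, USF2 was higher in clone 4 at 96.7% of 30, against 83.2% of the others, and PLAG1-S at 86.7% against 86.9%. The clone 4 lists also held more peaks.

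Most co-bound peaks lay at the start of the gene. A start was listed for 40 of the 52 genes. Of these 40, 20 (50%) had a co-bound PLAG1-S summit at most 1 kb from the start, against 6.84% of 15802 other genes. For all reproducible PLAG1-S peaks the shares were 80% and 39.0%. Over the 20 co-bound genes the USF2 summit lay at a median of 38 bp upstream of the start, upstream at 15 genes and at or past the start at 5. The range ran from 279 bp upstream at GLA to 460 bp downstream at TMEM192. The 6 co-bound genes with no listed start all had the summit within 1 kb of a gene end. Summits of both factors were a median of 8 bp apart in clone 4 over the 27 genes. At co-bound peaks the gap was 50 bp or less at 27 of 30 (90%), against 81.9% of other co-bound peaks.

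Within the list, co-bound PLAG1-S peaks were more often at the start than the other PLAG1-S peaks. The same split is not given for other genes, so it is not shown to be particular to lysosomal genes. Of the reproducible PLAG1-S peaks of lysosomal genes, 30 were co-bound, with 20 of the 24 at genes with a listed start within 1 kb of it and a median clone 4 fold of 26.8. Another 38 had no reproducible USF2 peak, with 14 of 33 within 1 kb and a median fold of 6.60. At 14 of the 27 co-bound genes the peak was also in the window of another coding gene, and at GLA, GALNS, NPC1 and SGSH that gene was the nearer one. Which of the neighbours a peak acts on was not tested.

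Lysosomal genes were about as long as others. Their median length was 23602 bp, against 24119 bp for other genes. In 4 equal groups of all genes from the shortest to the longest, 6 of 9, 8 of 18, 10 of 16 and 3 of 9 lysosomal genes were co-bound, against 8.55, 9.79, 11.4 and 9.73% of other genes.

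**Figure D4:**
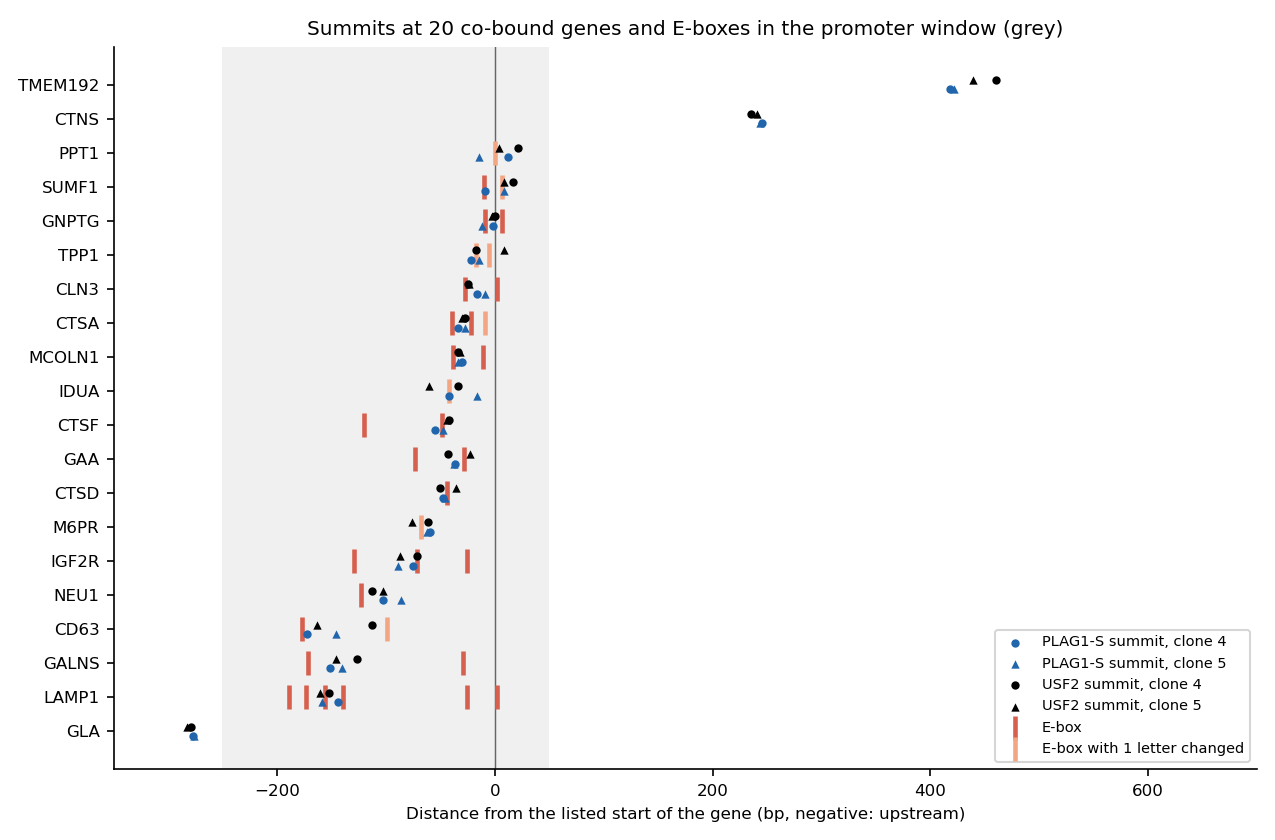
Summits of PLAG1-S (blue) and USF2 (black) in clone 4 (circles) and clone 5 (triangles) at the 20 co-bound genes with a summit within 1 kb of the listed start, by distance from the start (bp), with E-boxes (dark bars) and E-boxes with 1 letter changed (light bars) in the promoter window (grey). Most summits lay within the window, the clone 4 USF2 summits from 279 bp upstream at GLA to 460 bp downstream at TMEM192.

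The promoter windows, 250 bases before to 50 after the start, were searched on both strands for the letters of the E-box CACGTG, for the palindrome TCACGTGA that contains it, and for the bipartite PLAG1 consensus. CACGTG was in 13 of 40 lysosomal windows (32.5%), against 8.82% of 15802 others. TCACGTGA was in 8 (20%), against 1.38%, and the PLAG1 consensus in 18 (45%), against 32.6%. All 13 windows with CACGTG belonged to co-bound genes, out of 21, and none to the 13 PLAG1-S only genes or the 6 genes with no reproducible peak. The PLAG1 consensus was in 10 of 21, 6 of 13 and 2 of 6 windows of the same groups. Lysosomal windows had a median GC content of 68.2%, against 62.7%, and its part in these shares was not tested.

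Windows with CACGTG were bound more often in the lysosomal list. A co-bound USF2 summit lay in the window of all 13 lysosomal genes with CACGTG, against 38.2% of 1394 other genes with it. Without CACGTG the counts were 4 of 27 lysosomal genes and 0.527% of 14408 others. The clone 4 USF2 summit lay a median of 6.5 bp from the centre of the nearest CACGTG, within 20 bp at 10 genes and 50 bp at 12, and 64.5 bp away at CD63. CACATG or CATGTG lay nearer to the summit at CD63 (13.5 bp) and SUMF1 (9.5 against 26.5 bp). At CTSA it lay farther (18.5 against 5.5 bp). The LAMP1 window held 6 copies of CACGTG, more than any of the 15802 other windows.

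The 4 co-bound genes with a USF2 summit in the window and no CACGTG there were IDUA, M6PR, PPT1 and TPP1, whose sequences are shown above. Each held CACATG or CATGTG, a median of 7.5 bp from the clone 4 USF2 summit and at most 21.5 bp. These letters were looked for after the values were seen. They were in 9 of 40 lysosomal windows and 8.40% of others. Either form was present at all 17 lysosomal genes with a co-bound USF2 summit in the window, and at 92.0% of 609 other such genes. Of the 6 genes whose PLAG1-S peak had a USF2 peak beside it in clone 4 alone, GALC and SCARB2 held the changed form, 0.5 and 4.5 bp from the summit. AGA, GUSB and SMPD1 also had the summit in the window and held neither form. A match of letters is not shown to be the bound site.

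A wider set of 61 further lysosomal genes, with other hydrolases, membrane proteins and sorting proteins, had a PLAG1-S peak at 49 (80.3%). These 61 were counted among the other genes above. Co-bound peaks were at 17 (27.9%, exact binomial 95% interval 17.1 to 40.8%), against 9.87% of other genes. In the clone 4 lists alone the count was 28 (45.9%), against 20.4% of other genes. The co-bound genes named here were picked for the largest clone 4 USF2 folds, between 19.6 and 34.9. The lowest of the 17 in clone 4 was ARSK, with USF2 folds of 3.66 in clone 4 and 4.97 in clone 5. NAGPA, which uncovers the mannose-6-phosphate tag, had PLAG1-S folds of 44.6 and 38.5 and USF2 folds of 34.9 and 25.3. CLCN7, a chloride-proton exchanger of the lysosomal membrane, had 44.3 and 41.7 for PLAG1-S, with 34.3 and 28.6 for USF2. DPP7, a dipeptidyl peptidase, had USF2 folds of 28.3 and 19.5, and PIP4P1, a phosphoinositide phosphatase, had 19.6 and 15.7.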

How the data were processed

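ChIP-seq libraries of 2 clones were analysed as the 4 peak lists deposited by the authors, on hg38. Per the labels, libraries had 42.5 M reads per immunoprecipitation and 55 M per input, single-end, 50 bp. The submitters' processing notes name cutadapt, HISAT2 2.0.4, SAMtools, MACS2, bedtools and HOMER. For each immunoprecipitated library, the authors ran MACS2 against the merged inputs. The deposited fold is a ratio to local background at the summit. The deposited −log10 p and −log10 q are from MACS2, and the deposited score, 10 times −log10 q rounded down, was not used. The summit offset deposited by the authors gave positions.

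Reproducible peaks overlapped between clones by at least 1 bp, with clone 4 coordinates. Co-bound peaks lay within 100 bp of each other. Fragments at a summit were recovered from fold and −log10 p within 0.001, which gave 99.9 to 100% of peaks, and the strongest peaks gave none. Starts and promoters came from RefSeq (GRCh38.p14) for 15842 of 20037 protein-coding genes. For the other 12 members the nearer gene end stood in. Peak sequence outside these windows was not analysed here.

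The members and lists were chosen with earlier results of these data known, so no test of the list was made. Intervals are exact (Clopper-Pearson) and cover counting error only. Every co-bound member is named, the 3 with the largest clone 4 USF2 fold per class are described in full, and of the 5 other lysosomal genes with the largest such fold, 4 are named and 1 is not reported here. Libraries that share a clone number in the labels are from 1 line of cells, so a replicate block compared peaks within each clone. Alternatives changed the q threshold, list length, overlap, window, distance between factors and clones. Scripts were tested on simulated data (Python 3.11.15, numpy 2.4.6, pandas 2.3.3, scipy 1.17.1, matplotlib 3.10.9).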

Additional observations from a re-analysis of the deposited data

How the results depend on the processing

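Over 15 settings the number of co-bound members ran from 22 (−log10 q of at least 10 in every list) to 34 (peaks of either clone), with 5.65% and 22.0% of other genes co-bound. Leaving out a clone gave 27 to 33 members, with 11.2% and 20.4% of other genes co-bound. Of the 27 co-bound members, 20 were co-bound in every setting. PPT1, IDUA, ASAH1, CTSF and PSAP were lost at the stricter q, M6PR with 50% reciprocal overlap between clones, PSAP with 100 bp between summits, and NPC1 with no flank or only 1 kb around the start. Co-bound soluble helpers fell to 0 at the stricter q and with 100 bp between summits. Other lysosomal genes rose from 17 to 28 with peaks of either clone, and ran from 18 to 28 when a clone was left out. These settings for helpers and other lysosomal genes were added after the data were seen. With the replicate block, which compares peaks within each clone, averages were 45 members for PLAG1-S, 31.5 for USF2 and 30 co-bound. The shares of other genes were 61.1%, 19.3% and 15.8% in the same order. Co-bound averages by class were 17.5 hydrolases, 7.5 membrane proteins and 4 sorting proteins, with 23 other lysosomal genes. With 2 clones, clone and library cannot be told apart. The fewest fragments at a called summit were 11.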
